A study of Mus musculus with 18 samples.

Results

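The comparison set the testes of HFD_STZ_AOS_FMT mice, which had a high fat diet, STZ and a fecal microbiota transfer (FMT) named for AOS, against those of HFD_STZ mice, which had the diet and STZ and no transfer in their label. The members were the 6 of the series' 18 libraries that carry these labels, 3 in each group, and the 13874 genes that reached 1 RPKM in at least 3 of the 18 libraries, of 20985 rows in the deposited table. RPKM is a read number scaled by transcript length and by the library's total. The libraries in both groups came from ICR mice, an outbred stock, aged 10 weeks. STZ is streptozotocin, a toxin of insulin-producing beta cells, and AOS is given in the labels as an abbreviation with a dose of 10 mg/kg. The labels name the transferred material only as AOS 10 mg/kg FMT and do not describe the donors, the route, the schedule or a mock transfer in HFD_STZ mice. The other 12 libraries, also 3 a group, came from HFD_STZ_control_FMT mice (the same diet and STZ with a transfer named for control), HFD_STZ_AOS mice (diet, STZ and AOS itself), AOS mice and control mice. The series asks what microbiota transfer does in the testis after the diet with STZ, and damage to the testis was not measured here.

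The testis makes sperm in tubules where Sertoli cells nurse the germ cells, and testosterone in the Leydig cells between the tubules. Diabetes and diets rich in fat are known to disturb both tasks, and the gut microbiota can act on distant organs through metabolites, hormones and immune signals in the blood. A dissected testis can also carry pieces of its neighbours, such as the epididymis, fat and blood.

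Limma called 2 of the 13874 genes at an adjusted p under 0.05, which is 0.0144% of those tested. Both were higher in HFD_STZ_AOS_FMT testes, and the one with the larger difference was Kap, the kidney androgen-regulated protein. No gene was called lower, while 1130 genes were lower and 876 higher at an unadjusted p under 0.05, which is 8.14% and 6.31% of those tested and 14.5% together. These counts and their balance moved with the setting: 520 genes were lower and 493 higher without HFD_STZ_AOS_FMT replicate 1, 669 and 752 after each library's trend on transcript length was removed, and 844 and 1113 after scaling by median ratios. In 1605 genes (11.6%) all 3 HFD_STZ_AOS_FMT libraries lay below the 3 HFD_STZ libraries, and in 1085 (7.82%) above them, and 43.7% of genes had a positive log2 difference. Germ cell and Leydig cell genes that define the tissue were abundant in all 6 libraries, with Prm1 at 12857 RPKM or more and Insl3 at 3016 RPKM or more. Sertoli cell genes varied, with Defb19 at 223.38 RPKM or more and Amh at 1.37 RPKM or less in every library. The labels do not say that the libraries of a group came from separate animals, so p-values rest on a spread between libraries that could be technical. Across genes, libraries of 1 group had Pearson correlations of 0.990 to 0.994 on the log scale, and libraries of different groups 0.988 to 0.993. The RPKM values summed to 588081 to 646822 per library, and the steps between low values, read inside a fixed window that bounds the answer, gave 11 to 11.7 M reads per library.

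Kap stood at 39.24, 31.16 and 31.36 RPKM in the 3 HFD_STZ_AOS_FMT libraries, against 0.00, 0.15 and 0.73 RPKM in the HFD_STZ libraries. The groups were far apart, and the other 12 libraries reached at most 0.14 RPKM, in 1 HFD_STZ_AOS library. The log2 difference was 4.79 ± 0.15 (SE, on log2(RPKM + 1)) with an adjusted p of 1.30e-11 by limma. No other library reached 1 RPKM, so Kap passed the filter only through the 3 libraries where it was high. Its p-value carries that choice and is no separate support. Kap is a protein-coding gene at positions 133849851 to 133853762 of chromosome 6 (GRCm38), and its product is known from the proximal tubule of the mouse kidney, where androgen raises it. In bulk tissue, more cells of a type and more RNA per cell cannot be told apart, and this holds for every level given here.

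**Figure D1:**
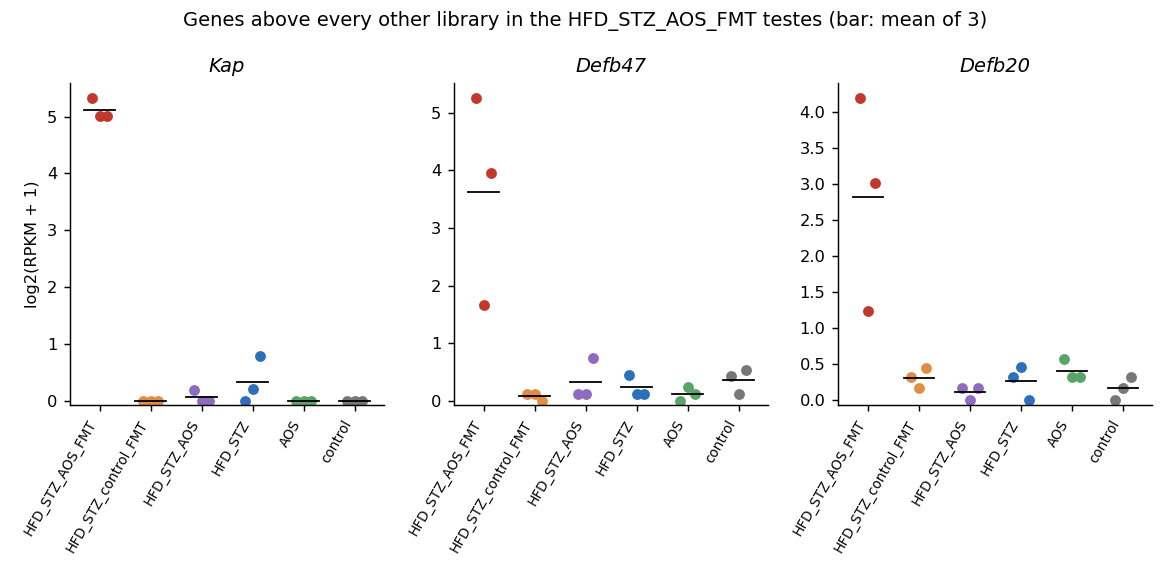
Each point is 1 library, on a log2(RPKM + 1) axis with its own range per gene, and each bar is the mean of 3 libraries. In HFD_STZ_AOS_FMT testes Kap lay between 31.16 and 39.24 RPKM, above each of the other 15 libraries, and Defb47 and Defb20 were also above them but spread widely.

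The start regions of the genes that stood furthest above the other libraries are shown because their values, described here and further on, carry the comparison. They are the 250 bases before the transcription start in RefSeq (GRCm38.p6), read 5′ to 3′ on the strand of the gene. For Kap that start lies inside the gene positions given above, which came from GENCODE, so the window overlaps them. Capitals mark TATAAA, the core of a TATA box, TGTTCT, 1 arm of the element that androgen receptors bind, and GTTAAT, 1 arm of the element that HNF1 factors of kidney, liver and gut bind. All were searched on both strands, and they do not overlap each other in these windows.
Kap, chr6:133853668-133853917, minus strand: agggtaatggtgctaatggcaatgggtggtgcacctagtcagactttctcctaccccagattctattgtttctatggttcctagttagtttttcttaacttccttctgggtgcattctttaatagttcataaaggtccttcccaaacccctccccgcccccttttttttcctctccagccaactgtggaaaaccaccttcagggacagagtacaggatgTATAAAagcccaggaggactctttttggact
Defb47, chr14:62997827-62998076, plus strand: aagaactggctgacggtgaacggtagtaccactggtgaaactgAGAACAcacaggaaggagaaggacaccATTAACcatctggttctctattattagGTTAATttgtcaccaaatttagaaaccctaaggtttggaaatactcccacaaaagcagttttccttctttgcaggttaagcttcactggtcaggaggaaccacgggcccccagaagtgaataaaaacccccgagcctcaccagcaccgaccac
Defb20, chr2:152476813-152477062, plus strand: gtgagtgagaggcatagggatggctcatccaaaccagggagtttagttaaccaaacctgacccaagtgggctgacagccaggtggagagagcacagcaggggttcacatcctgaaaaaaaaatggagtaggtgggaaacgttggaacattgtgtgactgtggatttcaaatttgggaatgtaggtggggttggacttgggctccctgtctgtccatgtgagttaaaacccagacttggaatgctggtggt
The Kap window held 1 TATAAA, from base 31 to base 26 before the start, a motif found in 13.0% of 27025 mouse promoters of this length. The Defb47 window held GTTAAT on each strand and TGTTCT on the strand opposite to the gene, which occur in 6.52% and 16.2% of those promoters. The Defb20 window held none of the 3 motifs. A match describes letters and is not a binding site.

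Other genes known from the kidney tubule were also detected above the rest of the series in HFD_STZ_AOS_FMT testes, at low levels. A list of 32 kidney genes was drawn up from textbook knowledge, and Kap was kept out of it. It was added after values of these data, of its members as well as of Kap, had been seen. Its counts are therefore a description and no separate support. In 10 of the 32, all 3 HFD_STZ_AOS_FMT libraries lay above each of the other 15, against 0.286% of the 20595 genes with any value. Slc34a1, the sodium phosphate carrier of the proximal tubule, had 0.86, 0.75 and 1.11 RPKM in HFD_STZ_AOS_FMT testes, against 0.06, 0.15 and 0.04 RPKM in HFD_STZ testes. Umod, the uromodulin of the loop of Henle, had 0.20, 0.34 and 0.33 RPKM in HFD_STZ_AOS_FMT testes, against 0.05, 0.03 and 0.03 RPKM in HFD_STZ testes. Acsm2, an acyl-CoA synthetase of kidney, had 0.47, 0.27 and 0.31 RPKM in HFD_STZ_AOS_FMT testes and was listed at 0 in the 3 HFD_STZ libraries. All 3 sets were apart with no overlap, at levels under 1.2 RPKM. Guca2b, Keg1, Cdh16, Cyp4b1, Napsa, Cyp2j5 and Slc22a6, an organic anion carrier, made up the rest of the 10.

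The list was not raised throughout. 15 of its 32 members lay above each HFD_STZ library, 0 lay below, and such a position was held by 6.42% of the 20595 genes. Aqp2, the water channel of the collecting duct, Nphs1 of the podocyte and Slc12a3 of the distal tubule overlapped between the groups. The summed level of the 32 genes was 17.63 to 19.13 RPKM in HFD_STZ_AOS_FMT testes and 10.35 to 12.36 RPKM in HFD_STZ testes, while control testes reached 16.63 RPKM. In that control library Aqp2 alone gave 7.14 RPKM, against 3.57, 4.18 and 3.36 RPKM in HFD_STZ_AOS_FMT testes. Liver and gut lists, drawn up at the same time, had 0 of 18 and 0 of 14 members above the other 15 libraries. Only 4 of the kidney genes passed the filter on low values, and without that filter limma called 16 of 20595 genes (0.0777%), 13 of them higher (0.0631%). The 13 held 6 of the kidney list, namely Slc34a1, Acsm2, Keg1, Umod, Guca2b and Cdh16, and the others included Kap, Cltrn, S100g, Tmigd1, Defb47 and Rcbtb2. The part of kidney RNA in the Kap difference was not tested.

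**Figure D2:**
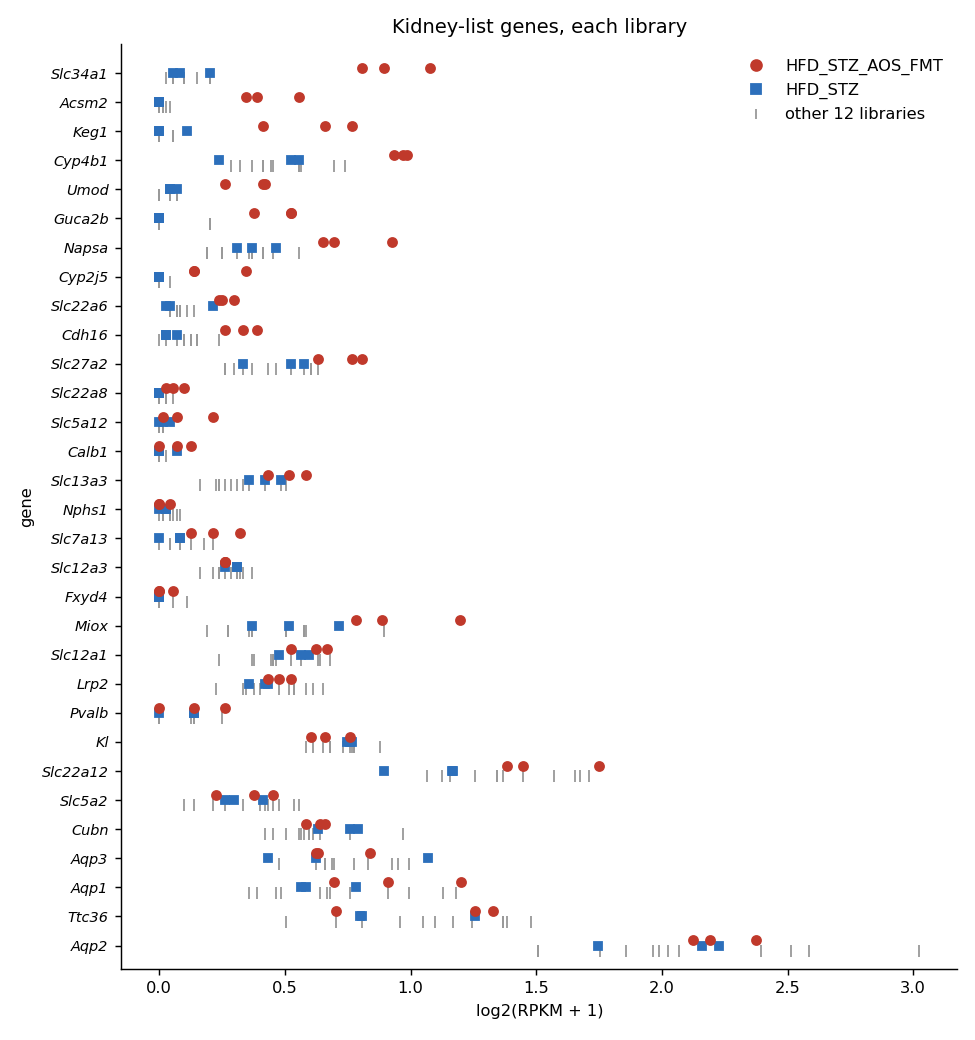
Each row is a kidney-list gene, with HFD_STZ_AOS_FMT libraries as circles, HFD_STZ libraries as squares and the other 12 libraries as ticks, on log2(RPKM + 1), and rows run from the widest gap over the other libraries at the top. In the top 10 rows the circles lie above all 15 other values, and in lower rows, such as Aqp2, they overlap them.

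Several epididymal genes had larger values in HFD_STZ_AOS_FMT testes than in HFD_STZ testes, with a wide spread between libraries, and none was called in the fit over all 18 libraries. Defb47, a beta-defensin gene at 62998077 to 63001160 of chromosome 14, had 37.31, 2.15 and 14.48 RPKM in HFD_STZ_AOS_FMT testes, against 0.37, 0.09 and 0.09 RPKM in HFD_STZ testes. Defb20, a beta-defensin gene at 152477063 to 152479934 of chromosome 2, had 17.43, 1.36 and 7.09 RPKM in HFD_STZ_AOS_FMT testes, against 0.25, 0.37 and 0.00 RPKM in HFD_STZ testes. Replicate 1 was highest and replicate 2 lowest for both genes, and each of the 3 exceeded every other library of the series. No other library reached 1 RPKM of either gene. Both thus passed the filter only through the HFD_STZ_AOS_FMT libraries, and their p values carry that choice. The log2 differences were 3.39 ± 0.55 for Defb47 and 2.56 ± 0.45 for Defb20, with adjusted p values of 0.0542 and 0.0877 by limma. Without HFD_STZ_AOS_FMT replicate 2 both passed, at log2 differences of 4.37 and 3.35, and Cst11, an epididymal cystatin, passed at 2.48. Defb47 also passed with no filter on low values (adjusted p = 0.0412), with a pseudocount of 0.1 (adjusted p = 0.0429) and with the length trend removed (adjusted p = 0.0452). Gpx5, the secreted glutathione peroxidase of the epididymis, did not reach the filter and followed the same order, with 22.21, 0.86 and 10.04 RPKM in HFD_STZ_AOS_FMT testes, against 0.00, 0.13 and 0.13 RPKM in HFD_STZ testes. Cst11 had 11.22, 0.89 and 5.72 RPKM in HFD_STZ_AOS_FMT testes, and 0.44, 1.33 and 0.29 RPKM in HFD_STZ testes, which overlap. Lcn9, an epididymal lipocalin also below the filter, had 5.69, 0.21 and 2.46 RPKM in HFD_STZ_AOS_FMT testes and at most 0.10 RPKM in any other library, again with replicate 1 highest.

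Crisp1, a major secretory protein of the epididymis, had another pattern. It had 0.99, 11.49 and 164.71 RPKM in HFD_STZ_AOS_FMT testes, and 0.15 RPKM in each HFD_STZ library. Replicate 3 was highest here, and values above 100 RPKM also occurred in 1 library each of HFD_STZ_control_FMT, HFD_STZ_AOS and control. Cd52, a surface antigen of epididymal epithelium and lymphocytes, had 3.60, 11.10 and 139.53 RPKM in HFD_STZ_AOS_FMT testes, and 2.55, 2.93 and 3.29 RPKM in HFD_STZ testes. Of 24 epididymis list members only 12 passed the filter, some through the libraries where they were high. All 12 had a positive log2 difference, against 43.7% of all genes tested, and 5 (41.7%) had an unadjusted p under 0.05, against 6.31%. Their median was 0.90 against -0.02 over all genes tested, or 0.43 without the 4 libraries above 100 RPKM of Crisp1. The summed level of the list was 1034 to 1288 RPKM in HFD_STZ_AOS_FMT testes and 721 to 811 RPKM in HFD_STZ testes. It reached 1072 RPKM in HFD_STZ_control_FMT, 1180 RPKM in HFD_STZ_AOS and 1027 RPKM in control testes. Cst8 and Wfdc15a, at no less than 239.79 and 152.62 RPKM in every library, are part of that sum. The list's median was 0.57 in HFD_STZ_control_FMT minus HFD_STZ and 0.15 in HFD_STZ_AOS_FMT minus HFD_STZ_control_FMT. The part of epididymal tissue in the other differences was not tested. Of those 4 libraries only HFD_STZ_AOS_FMT replicate 3 is in this comparison, and without them the log2 difference of Kap was 4.84. It was 4.68 without replicate 1, where Defb47, Defb20, Gpx5, Cst11 and Lcn9 were highest. Kap had 31.16 RPKM or more in each HFD_STZ_AOS_FMT library, so leaving 1 out could change little. A link of Kap to epididymal tissue was not tested.

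**Figure D3:**
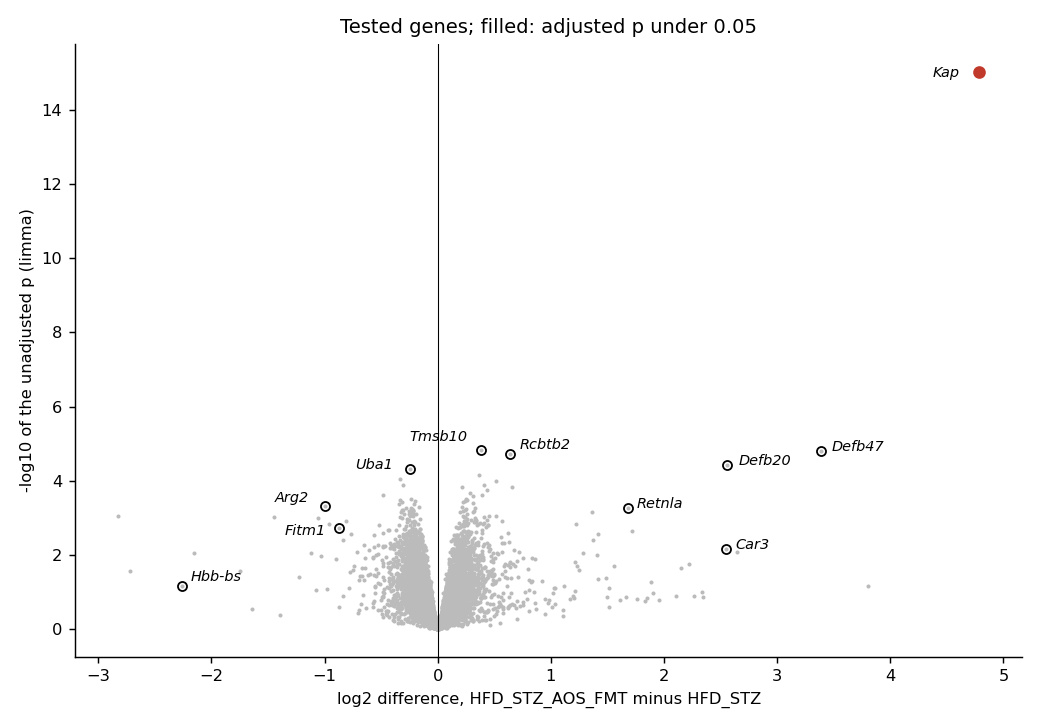
Each point is a tested gene, with its log2 difference (HFD_STZ_AOS_FMT minus HFD_STZ) on the x axis and the negative log10 of the unadjusted limma p on the y axis. The filled point, Kap, passed the adjusted threshold, and open circles mark other genes named in the text.

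Besides Defb47 and Defb20, the genes next to the threshold on the higher side had smaller differences. Tmsb10, a thymosin that binds actin monomers, had 2406, 2391 and 2414 RPKM in HFD_STZ_AOS_FMT testes, against 1823, 1744 and 1961 RPKM in HFD_STZ testes. The groups did not overlap, the log2 difference was 0.38 ± 0.06, and the adjusted p was 0.0542. Rcbtb2, a gene with RCC1 and BTB domains, had 5.37, 6.70 and 7.30 RPKM in HFD_STZ_AOS_FMT testes, against 3.60, 4.35 and 3.36 RPKM in HFD_STZ testes, and each of its 3 values exceeded all other libraries. Its log2 difference was 0.64 ± 0.11, with an adjusted p of 0.0542, and it passed when libraries were scaled by median ratios (adjusted p = 0.0372), without the filter (adjusted p = 0.0444) and with the length trend removed (adjusted p = 0.0175). Tmsb10 passed with a pseudocount of 0.1 (adjusted p = 0.0429) and with a robust variance prior (adjusted p = 0.0411). Lgals1, a galectin that binds cell surface sugars, had 42.42, 41.62 and 42.84 RPKM in HFD_STZ_AOS_FMT testes, against 32.11, 31.76 and 30.75 RPKM in HFD_STZ testes. Banf1, which tethers DNA to the nuclear envelope, had 57.43, 56.46 and 55.61 RPKM in HFD_STZ_AOS_FMT testes, against 48.61, 48.48 and 48.33 RPKM in HFD_STZ testes. Both were tight within groups and had an adjusted p of 0.147. Ppan, a factor of ribosome assembly, Elmo3, an adaptor of Rac signalling, Apol7b, of the apolipoprotein L family, and Cyr61, a matricellular protein, had log2 differences of 0.37, 0.52, 0.66 and 0.44. Their adjusted p values ran from 0.119 to 0.168. Ppan passed with the length trend removed (adjusted p = 0.0452).

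On the lower side no gene passed in the fit over the 13874 genes. Uba1, the enzyme that charges ubiquitin and the gene of smallest p there, had 48.72, 52.45 and 50.59 RPKM in HFD_STZ_AOS_FMT testes, against 60.13, 62.07 and 58.41 RPKM in HFD_STZ testes. Its log2 difference was -0.25 ± 0.04, with an adjusted p of 0.0958. With no filter on low values it passed (adjusted p = 0.0434), and the other lower genes called there were Zyg11a and Gm3757, with log2 differences of -0.35 and -0.47. Dnah6 and Dnah7c, heavy chains of the axonemal dynein that bends the sperm tail, had log2 differences of -0.24 ± 0.05 and -0.31 ± 0.06. Dnah6 had 10.53, 10.47 and 11.07 RPKM in HFD_STZ_AOS_FMT testes, against 13.05, 12.98 and 12.29 RPKM in HFD_STZ testes. Dnah7c had 13.03, 14.66 and 14.47 RPKM in HFD_STZ_AOS_FMT testes, against 17.46, 17.82 and 17.54 RPKM in HFD_STZ testes, and near-identical dynein copies may share its reads. Neither pair of groups overlapped. Nol4l, Arid2 (a subunit of a SWI/SNF chromatin remodeller), Stt3b (a catalytic subunit of oligosaccharyltransferase), Nav2, Vps9d1, Hyou1 (a chaperone of the endoplasmic reticulum), Pde8a (a cAMP phosphodiesterase) and Atg2b (a lipid transfer protein of autophagy) had log2 differences of -0.35 to -0.17. Their adjusted p values were 0.142 to 0.189.

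HFD_STZ_AOS_FMT levels are set beside both HFD_STZ and control levels for 6 genes. They were picked from the many genes whose HFD_STZ and control libraries did not overlap, all 6 with HFD_STZ_AOS_FMT on the control side of HFD_STZ, so that position is not a finding. The comparisons share the HFD_STZ libraries, so no return to control levels was tested. Arg2, the mitochondrial arginase, had 3.07, 4.23 and 4.87 RPKM in HFD_STZ_AOS_FMT testes, against 10.80, 6.63 and 9.94 RPKM in HFD_STZ testes, and 4.93, 2.80 and 2.46 RPKM in control testes. The 2 diet groups did not overlap, with a log2 difference of -0.99 ± 0.23 and an adjusted p of 0.189. Fitm1, which helps form lipid droplets, had 9.63, 7.97 and 8.66 RPKM in HFD_STZ_AOS_FMT testes, against 20.06, 13.64 and 17.22 RPKM in HFD_STZ testes, and 4.86, 5.54 and 6.99 RPKM in control testes. Its log2 difference was -0.87 ± 0.23, with an adjusted p of 0.216. HFD_STZ_control_FMT testes had 8.93, 8.21 and 7.31 RPKM of Fitm1, which overlaps the AOS transfer.

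The other 4 of these genes were added after their values were seen. Sec23a, a coat protein of vesicles leaving the endoplasmic reticulum, had 41.28, 41.27 and 41.12 RPKM in HFD_STZ_AOS_FMT testes, against 35.39, 34.48 and 34.48 RPKM in HFD_STZ testes and 46.65, 45.11 and 45.01 RPKM in control testes. The 3 groups were apart, with HFD_STZ_AOS_FMT between the others. Arl9, a small GTPase, had 94.19, 92.21 and 97.31 RPKM in HFD_STZ_AOS_FMT testes, against 75.38, 83.42 and 80.35 RPKM in HFD_STZ testes and 100.16, 89.05 and 97.77 RPKM in control testes. Both had a log2 difference of 0.24 (SE 0.06 and 0.05) and an adjusted p of 0.189. Brsk1, a polarity kinase, had 23.06, 25.10 and 25.52 RPKM in HFD_STZ_AOS_FMT testes, against 31.05, 30.64 and 33.14 RPKM in HFD_STZ testes and 22.06, 20.57 and 22.00 RPKM in control testes. Fbxl19, a CpG island binding F-box protein, had 10.57, 12.37 and 12.33 RPKM in HFD_STZ_AOS_FMT testes, against 15.18, 14.07 and 15.54 RPKM in HFD_STZ testes and 13.06, 11.60 and 11.86 RPKM in control testes. Neither overlapped between the 2 diet groups, and their adjusted p values were 0.219 and 0.189.

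Leydig cell genes did not move together. Of 20 tested, 9 were higher and 11 lower, 2 and 1 of them with an unadjusted p under 0.05, and the median log2 difference was -0.01. These are 10% and 5%, near the 6.31% and 8.14% of all genes tested. Of all genes tested 43.7% were higher, and these shares are the background for every list described below. Hsd3b6 and Hsd3b1 encode forms of the dehydrogenase that turns pregnenolone into progesterone, and their reads may be split between these close copies. Hsd3b6 had 17.92, 20.27 and 19.91 RPKM in HFD_STZ_AOS_FMT testes, against 33.31, 23.59 and 31.28 RPKM in HFD_STZ testes. Its log2 difference was -0.56 ± 0.16, with an adjusted p of 0.216. HFD_STZ_control_FMT testes were lower still, with 9.51, 8.59 and 10.98 RPKM. Hsd3b1 had 117.98, 180.73 and 110.38 RPKM in HFD_STZ_AOS_FMT testes, and 97.82, 113.53 and 74.67 RPKM in HFD_STZ testes, which overlap. Star, which carries cholesterol into mitochondria, had a mean of 41.3 RPKM in HFD_STZ_AOS_FMT testes and 42.6 RPKM in HFD_STZ testes. Cyp17a1, which makes androgen precursors, had a mean of 303 RPKM in HFD_STZ_AOS_FMT testes and 289 RPKM in HFD_STZ testes, and Insl3, a peptide hormone, 3847 RPKM and 3518 RPKM in the same groups. Their adjusted p values were 0.946, 0.872 and 0.772.

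Sertoli cell genes were also mixed, with 11 of 25 higher and 14 lower. Inhbb, a subunit of inhibin B, had 3.84, 5.03 and 4.74 RPKM in HFD_STZ_AOS_FMT testes, against 6.32, 5.59 and 5.49 RPKM in HFD_STZ testes. Its groups did not overlap, and its adjusted p was 0.216. Amh and Cldn11, a hormone and a tight junction protein of these cells, had adjusted p values of 0.630 and 0.690. Blood-testis barrier genes had 2 of 17 higher and 15 lower, with a median log2 difference of -0.05. Of the lower genes 1 had an unadjusted p under 0.05, which is 5.88% of the list, against 8.14% of all genes tested. That member was Ctnnb1, the beta-catenin that anchors cadherins, at -0.18 ± 0.08 with an adjusted p of 0.319.

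Late germ cell genes were mostly higher in HFD_STZ_AOS_FMT testes and earlier germ cell genes mostly lower, by small amounts. Among 29 elongating spermatid genes 27 had a positive log2 difference, 9 with an unadjusted p under 0.05 and 0 the other way, with a median of 0.08 against -0.02 over all genes. Prm3, a protamine family gene, had 841, 628 and 681 RPKM in HFD_STZ_AOS_FMT testes, against 523, 536 and 549 RPKM in HFD_STZ testes. Its log2 difference was 0.41 ± 0.11, with an adjusted p of 0.196. Meig1, which is needed to build the sperm tail, had 2869, 2331 and 2375 RPKM in HFD_STZ_AOS_FMT testes, against 2068, 2121 and 2165 RPKM in HFD_STZ testes, with an adjusted p of 0.216. Prm1 and Tnp1, which pack sperm DNA, had log2 differences of 0.23 ± 0.09 and 0.18 ± 0.08. Of 31 round spermatid and acrosome genes 23 were higher, among them Spaca5 and the kinase Tssk6 with log2 differences of 0.39 and 0.16. Meiotic genes had 12 of 35 higher and 23 lower, 9 of these with an unadjusted p under 0.05, among them the cohesin Stag3 at -0.15. Of 19 piRNA pathway genes 16 were lower, among them the tudor gene Tdrd6 at -0.22, and of 18 spermatogonial genes 15 were lower with 0 at an unadjusted p under 0.05. Sycp3, of the synaptonemal complex, and Stra8, which starts meiosis, had adjusted p values of 0.804 and 0.895. Medians of HFD_STZ_control_FMT minus HFD_STZ ran the same way, at 0.041 for round spermatid, -0.076 for meiotic, -0.037 for piRNA and -0.08 for spermatogonial genes. In HFD_STZ_AOS_FMT minus HFD_STZ_control_FMT they were 0.004, 0.009, -0.036 and 0.033, in that order.

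Ribosomal protein and oxidative phosphorylation genes showed one-sided counts. The 32 ribosomal protein genes tested all had a positive log2 difference, against 43.7% of all genes tested, and the median was 0.14. Of them 18 (56.2%) had an unadjusted p under 0.05, against 6.31% of all genes on the higher side. Rpl38 had 880, 648 and 650 RPKM in HFD_STZ_AOS_FMT testes, against 493, 543 and 588 RPKM in HFD_STZ testes, and replicate 1 was the highest. Of 34 nuclear genes of oxidative phosphorylation 32 were higher, 14 with an unadjusted p under 0.05, and the median was 0.12. Axoneme and intraflagellar transport genes, which build the sperm tail, ran the other way, with 20 of 25 lower, 11 of them with an unadjusted p under 0.05, and a median of -0.10. Dnah1 had 12.68, 14.99 and 14.78 RPKM in HFD_STZ_AOS_FMT testes, against 16.48, 16.61 and 16.08 RPKM in HFD_STZ testes. Fatty acid oxidation and ketone genes were lower in 17 of 22, with Cpt1b, the muscle-type carnitine transferase, at 112, 109 and 110 RPKM in HFD_STZ_AOS_FMT testes, against 120, 115 and 120 RPKM in HFD_STZ testes. No member of these lists passed the adjusted threshold. In HFD_STZ_control_FMT minus HFD_STZ the medians were 0.16 for ribosomal protein genes, 0.13 for oxidative phosphorylation, 0.10 for elongating spermatids and -0.11 for axoneme genes. Between the transfers, HFD_STZ_AOS_FMT minus HFD_STZ_control_FMT, they were -0.02, -0.01, 0.01 and -0.03. These shifts from HFD_STZ were therefore not particular to the AOS transfer. Groups with no transfer in their label are set beside them as summed levels. Ribosomal sums were 8487 to 9066 RPKM in HFD_STZ testes, 9843 to 10055 RPKM in HFD_STZ_AOS testes and 9031 to 9321 RPKM in AOS testes. In that order, elongating spermatid sums were 68759 to 75098, 76390 to 84981 and 80297 to 82406 RPKM. Axoneme sums overlapped, at 2208 to 2490, 2258 to 2312 and 2329 to 2459 RPKM.

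**Figure D4:**
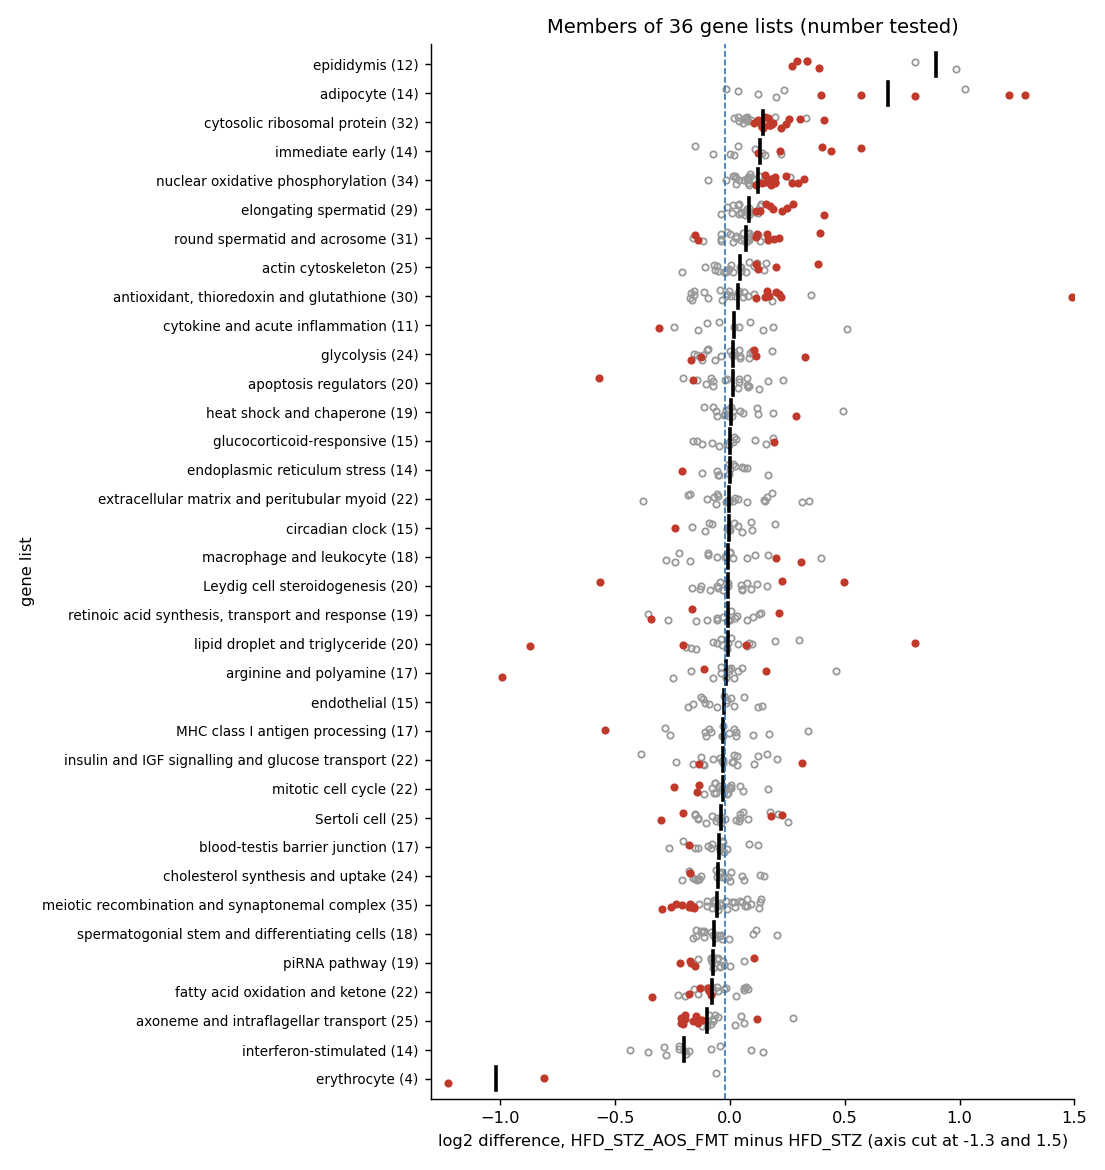
Each row is a gene list with its number of tested members, each point is a member's log2 difference (HFD_STZ_AOS_FMT minus HFD_STZ), filled where the unadjusted p is under 0.05, and the black bar is the list's median. The dashed line is the median of all 13874 genes (-0.02). Ribosomal, oxidative phosphorylation and spermatid medians lie to the right of it and axoneme medians to the left. Points beyond the axis ends are not drawn.

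Transcript length moved with these lists. Length here is that of the longest annotated transcript of each gene. Its median was 1053 bases for ribosomal protein genes and 5727 bases for axoneme genes, against 3102 bases over all genes tested. When the genes were put into 5 equal bins by length, the median log2 difference was 0.07 in the shortest bin and -0.08 in the longest, and 69.4% and 21.1% of genes were higher. HFD_STZ_control_FMT minus HFD_STZ ran a similar course, with medians of 0.06 and -0.09 in those bins, so the trend was not particular to the AOS transfer. Among the HFD_STZ_AOS_FMT libraries replicate 1 had the steepest course, with medians of 0.13 and -0.17 in those bins, whereas replicate 2 had 0.07 and -0.03 and replicate 3 had 0.03 and -0.05. After each library's trend on length was removed, the list medians were 0.07 for ribosomal protein genes, 0.07 for oxidative phosphorylation, 0.04 for elongating spermatids and -0.04 for axoneme genes. Without replicate 1 and with no correction for length they were 0.10, 0.06, 0.06 and -0.06. The part of length in these differences beyond this correction was not tested.

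**Figure D5:**
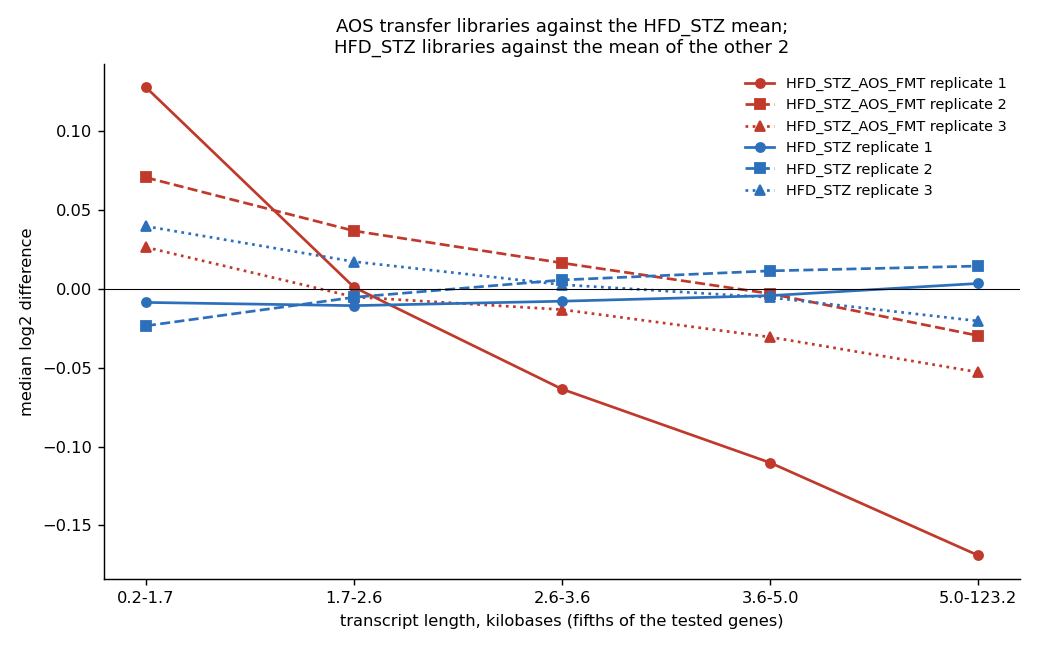
The x axis gives 5 equal bins of tested genes by transcript length in kilobases, and the y axis gives the median log2 difference of each HFD_STZ_AOS_FMT library from the HFD_STZ mean and of each HFD_STZ library from the mean of the other 2. HFD_STZ_AOS_FMT replicate 1 runs from 0.13 to -0.17, further than any other line. HFD_STZ_control_FMT libraries are not drawn.

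Fat genes were higher in HFD_STZ_AOS_FMT testes and globin genes lower, and neither group passed the adjusted threshold. Of 14 adipocyte genes tested, of 16 listed, 13 were higher, 8 with an unadjusted p under 0.05, and the median log2 difference was 0.69, or 0.48 without the 4 libraries above 100 RPKM of Crisp1. Fabp4, the fatty acid carrier of adipocytes, had 30.76, 46.19 and 93.87 RPKM in HFD_STZ_AOS_FMT testes, against 10.25, 11.52 and 3.15 RPKM in HFD_STZ testes. Car3, a carbonic anhydrase of fat and muscle, had 17.26, 20.55 and 49.37 RPKM in HFD_STZ_AOS_FMT testes, against 4.37, 4.90 and 2.13 RPKM in HFD_STZ testes. Replicate 3 was highest for both, the groups did not overlap, and the adjusted p values were 0.225 and 0.219. HFD_STZ_control_FMT testes, with 28.69, 22.71 and 104.95 RPKM of Fabp4 and 14.75, 13.30 and 48.97 RPKM of Car3, overlapped the HFD_STZ_AOS_FMT testes for both genes. Adipoq, the adipokine, had 13.35, 13.23 and 16.20 RPKM in HFD_STZ_AOS_FMT testes, against 11.07, 11.23 and 9.42 RPKM in HFD_STZ testes. The summed level of the adipocyte list was 458 to 608 RPKM in HFD_STZ_AOS_FMT testes and 395 to 420 RPKM in HFD_STZ testes. It was 439 to 634 RPKM in HFD_STZ_control_FMT testes. The list's median log2 difference was 0.72 in HFD_STZ_control_FMT minus HFD_STZ and 0.05 in HFD_STZ_AOS_FMT minus HFD_STZ_control_FMT. Retnla, a resistin-like protein of fat and alternatively activated macrophages that was added after its values were seen, had 4.4, 3.5 and 7.02 RPKM in HFD_STZ_AOS_FMT testes, against 0.45, 1.35 and 0.74 RPKM in HFD_STZ testes. Its adjusted p was 0.189.

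Hba-a1, an alpha globin gene with a near-identical copy, had 84.22, 97.68 and 64.99 RPKM in HFD_STZ_AOS_FMT testes, against 113.78, 143.94 and 177.76 RPKM in HFD_STZ testes. Hbb-bs, an adult beta globin gene, had 10.39, 1.00 and 6.06 RPKM in HFD_STZ_AOS_FMT testes, against 23.87, 31.83 and 20.69 RPKM in HFD_STZ testes. Neither gene overlapped between the groups, and their adjusted p values were 0.196 and 0.383. The 4 erythrocyte genes tested, of 7 listed, all had a negative log2 difference. The summed level of the list was 81.8 to 111 RPKM in HFD_STZ_AOS_FMT testes and 152 to 211 RPKM in HFD_STZ testes. HFD_STZ_control_FMT testes lay between them at 130 to 144 RPKM. Control testes had 99.8 to 141 RPKM, AOS testes 66.6 to 98.8 RPKM and HFD_STZ_AOS testes 108 to 175 RPKM. The list's median was -0.63 in HFD_STZ_control_FMT minus HFD_STZ, -0.02 in HFD_STZ_AOS_FMT minus HFD_STZ_control_FMT and 0.82 in HFD_STZ minus control. The part of blood or fat carried with the tissue was not tested.

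Immune genes gave no called gene. Of 14 interferon-stimulated genes tested, of 25 listed, 12 were lower, with a median log2 difference of -0.20 and 0 with an unadjusted p under 0.05. Psmb8, a subunit of the immunoproteasome, had 1.29, 2.03 and 1.55 RPKM in HFD_STZ_AOS_FMT testes, against 2.14, 2.80 and 3.60 RPKM in HFD_STZ testes, with an adjusted p of 0.284. Its neighbours Psmb9 and Tap1, a peptide transporter, overlapped between the groups, with log2 differences of -0.03 ± 0.34 and -0.26 ± 0.38. Macrophage and leukocyte genes were split 9 against 9, and Cd68, a lysosomal protein of macrophages, differed by -0.02 ± 0.18. Among immediate early genes 12 of 14 were higher, 5 with an unadjusted p under 0.05. Egr1, a zinc finger gene induced within minutes of stimulation, had 3.41, 2.21 and 2.86 RPKM in HFD_STZ_AOS_FMT testes, against 1.51, 1.54 and 1.61 RPKM in HFD_STZ testes, with an adjusted p of 0.196.

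The other lists had medians between -0.05 and 0.04. Cholesterol synthesis and uptake genes had 18 of 24 lower. Antioxidant genes had 18 of 30 higher, 8 of them with an unadjusted p under 0.05, among them Gpx4, the peroxidase of phospholipids, and Prdx2 with log2 differences of 0.17 and 0.20. Of 24 glycolysis genes 13 were higher, among them Pgam2, a phosphoglycerate mutase, at 0.33 ± 0.08. Retinoid genes were split 9 to 10, and Cyp26b1, which degrades retinoic acid, stood at -0.34 ± 0.11. Actin genes had 15 of 25 higher, with Tmsb10 described above. Mitotic cell cycle genes had 6 of 22 higher and 16 lower, 3 of these with an unadjusted p under 0.05 (13.6% of the list, against 8.14% of all genes tested). Heat shock, endoplasmic reticulum stress, glucocorticoid, circadian, apoptosis, inflammation, antigen processing, arginine and polyamine, endothelial, matrix, insulin and lipid droplet lists each held at most 2 members in 1 direction with an unadjusted p under 0.05. Acta2, of peritubular myoid cells, and Pecam1, of endothelium, had adjusted p values of 0.992 and 0.988.

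Comparisons with the other groups show where the AOS transfer stood apart. Against HFD_STZ_control_FMT testes, which had the same diet, STZ and a transfer, limma called 3 genes (0.0216%), all higher in HFD_STZ_AOS_FMT testes. They included Kap at a log2 difference of 5.12 ± 0.15 and Defb47 at 3.54 ± 0.55, whose adjusted p was 0.0447. The Defb47 call was lost when any 1 of 5 of the 6 libraries was left out, all but HFD_STZ_AOS_FMT replicate 2, and Kap was called in each case. HFD_STZ_control_FMT testes were listed at 0 for Kap in all 3 libraries. Tmsb10, Sec23a, Lgals1 and Banf1 had log2 differences of -0.04 to 0.04 between the transfers. Hsd3b6 was next to the threshold at 0.93 ± 0.16, with an adjusted p of 0.0973. In this comparison the median log2 difference was 0.01 in both the shortest and the longest length bin. Against control testes limma called 2 genes (0.0144%), Kap among them, and 10 without HFD_STZ_AOS_FMT replicate 3. Against HFD_STZ_AOS testes, which were given AOS itself, it called 3 genes, among them Kap, with a log2 difference of 5.05, and 1 lower gene, the predicted gene Gm13305. These comparisons share the HFD_STZ_AOS_FMT libraries and are not independent of each other.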

How the data were processed

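RNA sequencing of testis was analysed in 18 libraries, grouped into 6 by the labels. Testes were frozen, and total RNA was taken with Trizol plus a column step, per the labels' protocols. Bowtie 0.12.2 and mm10 are named, per the submitters' processing notes. The counter, the annotation and strand use are not given in the sources used here, so overlapping and antisense genes cannot be told apart. The authors deposited 1 table whose values fit RPKM, rounded to hundredths; the unit was read from the values. RPKM values are relative to each library's total, so abundant transcripts shift the others. Of 20985 rows, 6 rows of 3 duplicated symbols were left out, and no gene was named from 22 symbols turned into dates.

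The 13874 genes that reached 1 RPKM in 3 or more libraries entered tests on log2(RPKM + 1), which understates changes of low genes, with limma 3.58.1 in R 4.3.3. The model used every library with a mean per group, a variance trend, 12 residual and 3.71 prior degrees of freedom, two-sided tests and Benjamini-Hochberg adjustment over all tested genes at 0.05. Errors are SE for differences and per-library values otherwise. The script was tested on simulated data. Depth is an estimate only, and no counting interval is given.

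The comparison, its members and the 36 gene lists were chosen with earlier results of these data known. Named genes were those called, up to 12 non-overlapping genes of smallest p in each direction, up to 3 members of each list and a panel of 20 genes; Sec23a, Arl9, Brsk1, Fbxl19, Cd52, Gpx5, Lcn9, Retnla, Hbb-bs and the kidney, liver and gut lists were added after their values were seen. Some genes, 1 of the called genes among them, are counted but not reported here. Lists are described by counts and medians without a test. Coordinates and lengths came from GENCODE vM21 (GRCm38), which matched 96.4% of symbols and 97.7% of tested genes, and promoters from RefSeq. Alternatives were scaling by median ratios, no filter, a pseudocount of 0.1, only the 6 libraries, a block for replicate number, a robust variance prior, removal of each library's length trend and the omission of each library; leaving out the 4 libraries with over 100 RPKM of Crisp1, and single libraries in the comparisons with HFD_STZ_control_FMT and control, was chosen after seeing the data. Tables were also made with Python 3.11.15, pandas and matplotlib.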

Additional observations from a re-analysis of the deposited data

Results flagged for a closer look

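HFD_STZ_AOS_FMT testes differed from HFD_STZ_control_FMT testes in the levels of Kap and Defb47, by limma's test of HFD_STZ_AOS_FMT minus HFD_STZ_control_FMT over all 13874 genes. The log2 difference was 5.12 for Kap (adjusted p = 4.62e-12) and 3.54 for Defb47 (adjusted p = 0.0447), each higher in 3 of 3 HFD_STZ_AOS_FMT libraries than in any HFD_STZ_control_FMT library. Both genes reached 1 RPKM only in the HFD_STZ_AOS_FMT libraries and passed the filter through them, so these p values are no separate support. Defb47 ranged from 2.15 to 37.31 RPKM within the HFD_STZ_AOS_FMT group, against 0.00 to 0.09 RPKM in the HFD_STZ_control_FMT group. Defb47 lost its call when any 1 of the other 5 libraries of these groups than HFD_STZ_AOS_FMT replicate 2 was left out. In 10 of 32 other genes known from the kidney the 3 HFD_STZ_AOS_FMT libraries also lay above each of the other 15. That list was added after its values were seen. The epididymal genes Defb20, Gpx5, Cst11 and Lcn9 followed the same order of libraries as Defb47. The part of kidney or epididymal RNA in these differences was not tested.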

How the results depend on the processing

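Of the 2 genes called in HFD_STZ_AOS_FMT against HFD_STZ, Kap was called under all 14 alternatives, and the fit on the 6 libraries alone called 1 gene. No filter on low values gave 16 calls, 13 higher and 3 lower, a pseudocount of 0.1 gave 4, and removal of the length trend gave 5. Leaving out 1 library gave 2 to 5 calls, all higher; the 5 came without HFD_STZ_AOS_FMT replicate 2 and included Defb47, Defb20 and Cst11, and 4 came without HFD_STZ replicate 2. Median ratio scaling and robust empirical Bayes gave 3 calls each, and without the 4 libraries above 100 RPKM of Crisp1 there were 2. Against HFD_STZ_control_FMT the 3 calls were 11 without the filter, and against control the 2 calls were 10 without the filter and 4 with a pseudocount of 0.1. Leaving out 1 library gave 2 to 5 calls in the first of these, with the 5 without HFD_STZ_AOS_FMT replicate 2, and 2 to 10 in the second, with the 10 without HFD_STZ_AOS_FMT replicate 3. Scaling by median ratios moved the median of all genes to 0.00, against -0.02, and the unadjusted calls to 1113 higher and 844 lower, against 876 and 1130.

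The replicate numbers share only a number: deviations of same-numbered libraries correlated at -0.005, 0.058 and -0.043, and 1 of 3 numbers correlated best with its own. The replicate block left 2 calls. Of 152 genes followed, 10 changed sign in some setting, none of them called. With the length trend removed the log2 difference was 0.029 for Hspa4l, 0.00073 for Star, -0.012 for Insl3 and -0.024 for Sycp3, and with median ratio scaling it was 0.022 for Acta2. Without the 4 libraries it was 0.087 for Stra8, 0.123 for Psmb9, 0.026 for Acta2 and -0.063 for Pecam1. With single libraries left out it ran from -0.106 to 0.141 for Cyp17a1, from -0.0052 to 0.271 for Insl3, from -0.132 to 0.087 for Stra8, from -0.183 to 0.210 for Cd68, from -0.178 to 0.123 for Psmb9, from -0.094 to 0.059 for Acta2 and from -0.085 to 0.119 for Pecam1. The cause was not tested. With 3 libraries a group and about 11 M reads each, genes near 0 RPKM rest on few reads.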
